A study of Mus musculus with 8 samples.

Results

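The 29 genes described here are a module of B cell and lymphoid follicle genes, taken by symbol from a fixed list and found among the 52636 genes of a count table from mouse colon. They comprise the B cell receptor complex and its signalling proteins (Cd79a, Cd79b, Blk, Blnk, Bank1), transcription regulators of the B lineage (Pax5, Ebf1, Ikzf3, Pou2af1, Spib, Ciita), a surface group (the surface molecules Ms4a1, Cr2, Fcer2a, Cd22, Cd72, Cd37, Cd52, Tnfrsf13c and Btla, with Fcrla and Vpreb3 counted beside them), and the chemokines, lymphotoxins and homing molecules of follicles (Cxcl13, Cxcr5, Ccr7, Ccr6, Ltb, Lta, Madcam1). The study asked how intestinal colonization by a single yeast species affects the colon of germ-free mice. All mice were wild-type C57BL/6 females, 6 weeks old, kept in gnotobiotic isolators. They were uncolonized controls (3 libraries), or had been given Candida albicans SC5314 (3 libraries) or Candida tropicalis MYA-3404 (2 libraries) by oral gavage, and the colon was taken at 30 days. The labels do not say whether the controls received a mock gavage, whether each library is a separate mouse, or which part of the colon was taken, so the p-values reflect how much these 8 libraries varied, and that variation may be partly technical.

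B cells in the colon are gathered largely in isolated lymphoid follicles and colonic patches, small aggregates in and under the mucosa. Lymphotoxin made by lymphocytes and inducer cells drives stromal cells to make CXCL13, which draws in naive B cells through the receptor CXCR5, and B cells recognise antigen through a surface immunoglobulin that signals through the CD79A and CD79B chains. Follicles are scattered along the gut, and their maturation is known to depend on the gut microbiota.

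The 8 libraries held 16195376 to 19761098 counts, so 3 counts corresponded to 0.152 to 0.185 CPM (the count scaled to a common library size). Levels below are CPM values scaled by edgeR's TMM factors. All 29 genes passed the filter on low counts, which kept 16107 genes. Libraries differed in smooth muscle signal: the summed CPM of 10 smooth muscle genes ran from 6776 to 13323 in the controls, from 9876 to 28472 with C. albicans and from 3884 to 4936 with C. tropicalis. The summed level of 10 colon epithelium genes, 16819 to 24419 CPM over all libraries, varied less.

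RefSeq promoter windows (build GRCm38.p6) were at hand for 21 of the 29 genes. The 250 bases before each start were searched on both strands for the octamer ATGCAAAT, the site of the OCT factors that OBF-1 (the product of Pou2af1) assists. They were also searched for the EBF1 core CCCNNGGG and for GAGGAAGT, a site of the ETS factors PU.1 and SPIB. None of the 3 motifs contains another. The octamer was present for 3 genes, Ccr6, Blnk and Vpreb3 (it lies in 1.81% of all genes with a window). The EBF1 core was present for 4, Cd22, Bank1, Spib and Madcam1 (13.4%), and the ETS motif for 3, Cd37, Cd72 and Btla (2.79%). The windows below show a regulator with none of these letters and 3 members with matches in capitals, chosen among the windows that hold no GENCODE exon: Pax5, the regulator that commits cells to the B lineage, Spib, whose EBF1 cores overlap, Vpreb3, which carries an octamer, and Madcam1, the vascular addressin.
Pax5 (chr4:44710695-44710944, minus strand): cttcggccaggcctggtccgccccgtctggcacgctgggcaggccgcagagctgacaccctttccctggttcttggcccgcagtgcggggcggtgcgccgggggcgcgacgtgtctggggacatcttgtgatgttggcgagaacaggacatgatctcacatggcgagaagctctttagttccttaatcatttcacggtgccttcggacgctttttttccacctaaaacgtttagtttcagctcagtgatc
Spib (chr7:44532072-44532321, minus strand): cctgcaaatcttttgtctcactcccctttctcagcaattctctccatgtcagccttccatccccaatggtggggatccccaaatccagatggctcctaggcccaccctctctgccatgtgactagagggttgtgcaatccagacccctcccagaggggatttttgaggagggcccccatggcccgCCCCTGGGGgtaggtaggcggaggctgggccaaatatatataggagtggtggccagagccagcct
Vpreb3 (chr10:75948050-75948299, plus strand): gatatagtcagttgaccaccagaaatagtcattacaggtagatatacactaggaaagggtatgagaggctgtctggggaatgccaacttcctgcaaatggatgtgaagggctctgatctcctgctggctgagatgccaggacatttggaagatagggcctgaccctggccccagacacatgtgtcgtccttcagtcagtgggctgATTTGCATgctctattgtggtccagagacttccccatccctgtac
Madcam1 (chr10:79664309-79664558, plus strand): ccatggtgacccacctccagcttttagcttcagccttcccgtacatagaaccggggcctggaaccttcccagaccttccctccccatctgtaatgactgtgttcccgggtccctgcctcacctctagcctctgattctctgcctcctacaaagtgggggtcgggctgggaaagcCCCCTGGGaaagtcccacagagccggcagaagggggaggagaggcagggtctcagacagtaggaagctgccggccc
A match is a description of these letters and was not tested as a binding site.

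Most of the 29 genes shared an order of libraries that did not follow the groups. Controls 2 and 3 were the 2 highest of the 8 libraries for 25 of the 29 genes (all but Cxcl13, Ccr6, Blnk and Ciita), an order held by 6.1% of all tested genes. Control 1 and C. albicans 2 were the 2 lowest for 27 (all but Blnk and Ebf1), against 7.25% of all tested genes. Both held for 24 members, against 1.46% of all tested genes. The summed level of the 28 genes other than Blnk was 75.3, 511 and 650.1 CPM in controls 1 to 3, 205, 62.5 and 168 CPM in C. albicans 1 to 3, and 189.7 and 246 CPM in C. tropicalis 1 and 2. Thus the control group held both the richest libraries and one of the poorest, and both C. tropicalis libraries lay inside the control range for 26 of the 29 genes (29.1% of all tested genes do so). In bulk tissue, fewer B cells and less RNA per B cell cannot be told apart.

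**Figure D1:**
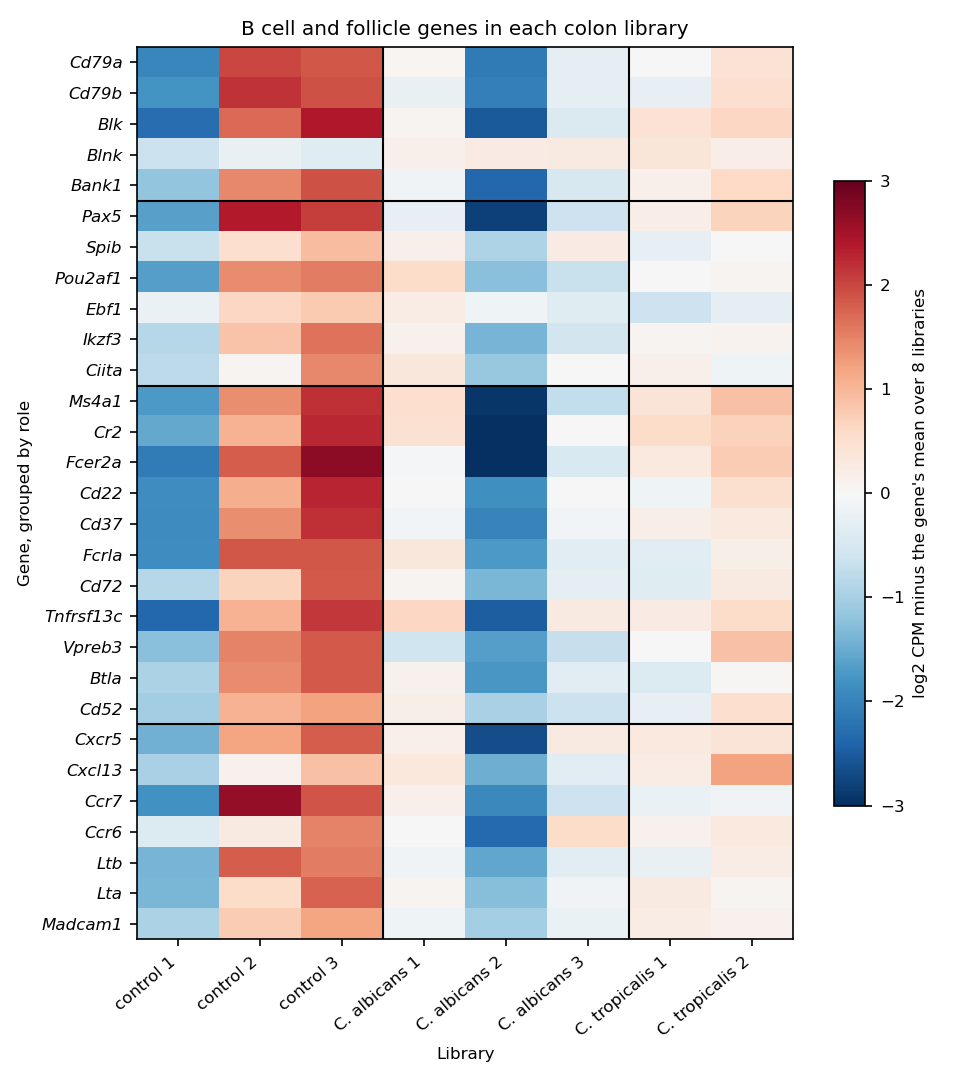
Level of each of the 29 genes (rows, grouped by role) in each of the 8 libraries (columns), as log2 CPM centred on the gene's mean over the libraries. Controls 2 and 3 are the highest columns for 25 genes, and control 1 and C. albicans 2 the lowest for 27, while Blnk follows a different order.

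Cd79a and Cd79b, which encode the signalling chains of the B cell receptor, were among the most abundant members. Per exon length Cd79a was the highest of the 29 in the controls, at 46.0 ± 36.1 RPKM (SD, n = 3), and Cd79b was the third, at 19.8 ± 15.7 RPKM (SD, n = 3). Cd79a (ENSMUSG00000003379, chr7:24897381-24902197) measured 6.40, 102 and 92.7 CPM in controls 1 to 3, 26.4, 5.72 and 20.5 CPM with C. albicans, and 25.1 and 34.2 CPM with C. tropicalis. Cd79b (ENSMUSG00000040592, chr11:106311341-106314762) measured 2.80, 44.9 and 37.3 CPM in the controls, 8.49, 2.31 and 8.17 CPM with C. albicans, and 8.39 and 14.0 CPM with C. tropicalis. For both genes control 1 was near the level of C. albicans 2, so the control and C. albicans groups overlapped. The partner chains kept a nearly fixed proportion: the per-length ratio of Cd79a to Cd79b stayed between 2.22 and 3.06 while Cd79a itself varied 17.8-fold and Cd79b 19.4-fold over the 8 libraries.

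The B cell kinase gene Blk and the adaptor gene Bank1 followed the same order of libraries. Blk averaged 8.70 ± 7.73 CPM in the controls, 1.88 ± 1.35 CPM with C. albicans and 4.29 ± 0.419 CPM with C. tropicalis (SD, n = 3, 3 and 2). Bank1 averaged 4.36 ± 3.30 CPM, 1.08 ± 0.734 CPM and 2.44 ± 0.550 CPM in the same groups. Within the controls alone Blk ranged 30.9-fold and Bank1 9.71-fold.

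Blnk, which encodes the adaptor that links the receptor's kinase to downstream signalling, stood apart from the other members. Blnk (ENSMUSG00000061132, chr19:40928927-40994535) measured 71.3, 95.6 and 86.9 CPM in the controls, 124, 132 and 135 CPM with C. albicans, and 145 and 129 CPM with C. tropicalis. Every colonized library lay above every control (9.82% of tested genes are higher in this way with C. albicans and 16% with C. tropicalis), and C. albicans 2, the poorest library for most of the module, lay between the other C. albicans libraries. The difference was 0.62 ± 0.14 (log2 fold change ± SE, adjusted p = 0.151) for C. albicans and 0.70 ± 0.15 (adjusted p = 0.16) for C. tropicalis in edgeR's quasi-likelihood test with Benjamini-Hochberg adjustment, so it did not pass the threshold of 0.05. DESeq2 gave adjusted p-values of 0.00547 and 0.00847 for the same 2 comparisons. Over all alternative settings the adjusted p ran from 0.00547 to 0.475 for C. albicans and from 0.00847 to 0.806 for C. tropicalis. Blnk had the smallest spread between replicate libraries of any member, 0.15 on the log2 scale. It measured 132 CPM in C. albicans 2, where all other members together summed to 62.5 CPM. Which cells the Blnk reads come from was not tested.

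Among the transcription regulators, Pax5 spanned the widest range and Ebf1 the narrowest. Pax5 (ENSMUSG00000014030, chr4:44524757-44710487), the factor that fixes B cell identity, measured 1.20, 21.1 and 17.0 CPM in the controls, 3.32, 0.472 and 2.56 CPM with C. albicans, and 4.57 and 6.35 CPM with C. tropicalis. Ebf1 (ENSMUSG00000057098, chr11:44617317-45008091), which acts upstream of Pax5 and is also known from adipocyte and stromal cells, measured 3.08, 5.54 and 6.18 CPM in the controls, 4.16, 3.25 and 2.74 CPM with C. albicans, and 2.28 and 2.89 CPM with C. tropicalis. The per-length ratio of Pax5 to Ebf1 therefore varied 26.2-fold, from 0.160 in C. albicans 2 to 4.19 in control 2. Ebf1 was the one member whose C. tropicalis libraries both lay below all controls, with a log2 fold change of -0.93 ± 0.36 in edgeR's quasi-likelihood test across all genes (adjusted p = 0.291). The summed level of the adipocyte list, 6 genes, was 29.4 to 230.0 CPM in the controls and 11.5 to 44.1 CPM with C. tropicalis. In C. albicans 1 to 3 it was 68.4, 211 and 58.8 CPM, an order that Ebf1 did not share. The part of adipocytes in the Ebf1 value was not tested.

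Spib and Ciita, which are also used outside B cells, varied less than Pax5. Spib, an ETS factor of B cells, plasmacytoid dendritic cells and M cells, measured 16.0, 36.3 and 48.7 CPM in the controls, 28.1, 13.3 and 30.2 CPM with C. albicans, and 21.5 and 25.2 CPM with C. tropicalis. Ciita, the transactivator of class II antigen presentation genes, measured 5.37, 9.83 and 25.4 CPM in the controls, 11.8, 4.15 and 9.33 CPM with C. albicans, and 10.3 and 8.44 CPM with C. tropicalis. For both, all colonized libraries except C. albicans 2 lay within the control range. Pou2af1, the B cell coactivator, averaged 14.2 ± 10.4, 6.03 ± 4.06 and 7.34 ± 0.362 CPM in controls, C. albicans and C. tropicalis (SD, n = 3, 3 and 2). Ikzf3, the zinc finger factor Aiolos, averaged 4.90 ± 3.48, 1.88 ± 0.994 and 2.84 ± 0.0648 CPM in the same groups.

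The surface molecules of mature B cells followed the same order of libraries. Ms4a1, which encodes CD20, measured 0.743, 7.27 and 12.7 CPM in the controls, 3.88, 0.262 and 1.59 CPM with C. albicans, and 3.60 and 5.10 CPM with C. tropicalis. Cr2, the complement receptor CD21 of B cells and follicular dendritic cells, measured 0.743, 5.0 and 11.8 CPM in the controls, 3.32, 0.105 and 2.38 CPM with C. albicans, and 3.54 and 3.91 CPM with C. tropicalis. The Cr2 value of C. albicans 2 rests on 2 counts and lies under the floor of 3 counts. Fcer2a, the low-affinity IgE receptor CD23 of naive and follicular B cells, had the largest spread between replicates of all members, 1.91 on the log2 scale, and ranged 29.6-fold within the controls.

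The other genes of the surface group had the same shape. Cd37, a tetraspanin of B cells, averaged 47.4 ± 41.1 CPM in the controls, 13.5 ± 7.60 CPM with C. albicans and 22.4 ± 1.20 CPM with C. tropicalis (SD, n = 3, 3 and 2). The inhibitory receptors Cd22 and Cd72 ranged 18.6-fold and 6.67-fold within the controls. Tnfrsf13c, the receptor for the survival factor BAFF, ranged 26.5-fold there, and Fcrla, an intracellular Fc receptor-like protein, ranged 15.9-fold. Btla, an inhibitory receptor shared with T cells, ranged 7.38-fold, and Cd52, a lymphocyte surface glycoprotein, 4.82-fold. Vpreb3, a protein of early B cells that binds newly made receptor chains, had the lowest CPM of the surface group in all 3 group means, at 1.42 ± 1.12, 0.249 ± 0.126 and 0.852 ± 0.398 CPM in the 3 groups, with 2 counts in its lowest library.

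**Figure D2:**
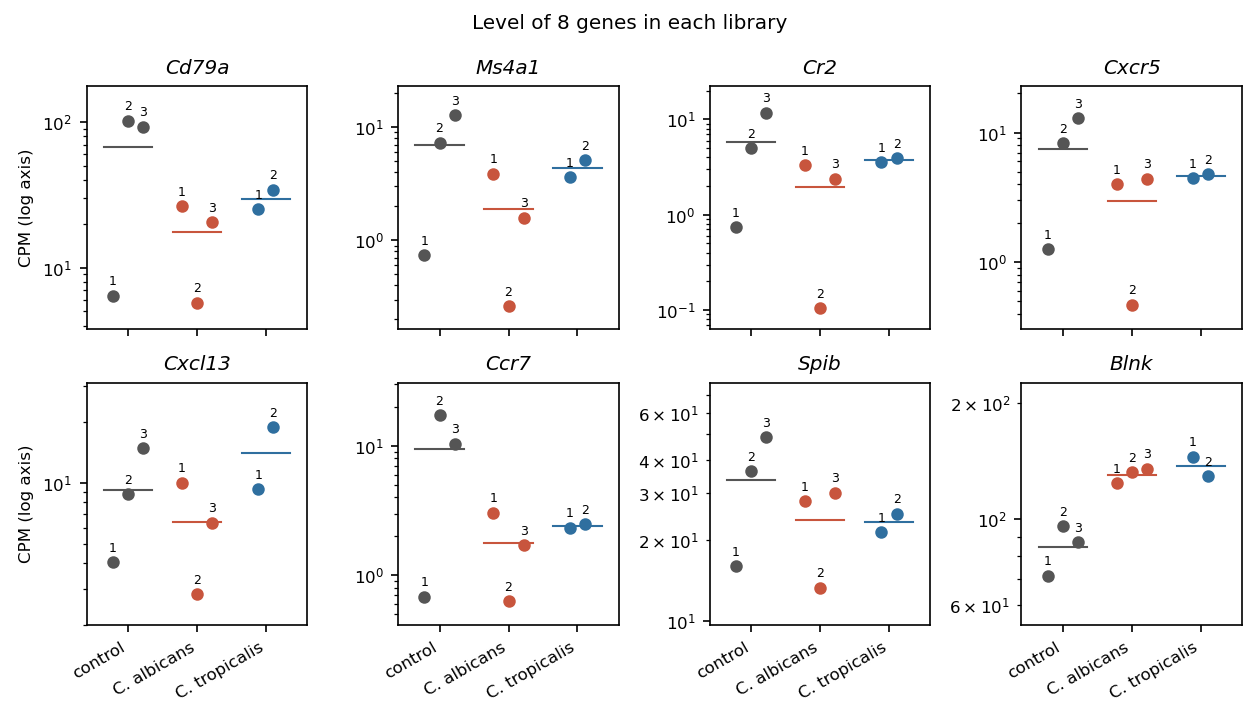
CPM (log axis) of 8 members in each library, with the replicate number beside each point and the group mean as a line. Control 1 and C. albicans 2 are the 2 lowest points in every panel but that of Blnk, where all 5 colonized libraries lie above the 3 controls.

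Of the follicle genes, the ligand Cxcl13 shared its 2 lowest libraries, control 1 and C. albicans 2, with its receptor Cxcr5, but not its highest. Cxcl13, made by follicular stroma, measured 4.06, 8.76 and 14.8 CPM in the controls, 10.0, 2.83 and 6.34 CPM with C. albicans, and 9.31 and 18.8 CPM with C. tropicalis, and its highest library was C. tropicalis 2. Cxcr5 measured 1.26, 8.28 and 12.9 CPM in the controls, 3.99, 0.472 and 4.39 CPM with C. albicans, and 4.45 and 4.76 CPM with C. tropicalis. The per-length ratio of Cxcr5 to Cxcl13 ran from 0.0575 in C. albicans 2 to 0.326 in control 2, with 0.165 and 0.0876 in the C. tropicalis libraries. The lowest ratio rests on 9 counts of Cxcr5, and Cxcr5 shares exons with Bcl9l, as described below. Cxcl13 and Blnk were the 2 members with a C. tropicalis value above the control value in the fit, 0.61 ± 0.59 on the log2 scale for Cxcl13 (adjusted p = 0.635).

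Ccr7, the receptor that guides lymphocytes to T cell zones, measured 0.685, 17.3 and 10.4 CPM in the controls, 3.04, 0.630 and 1.71 CPM with C. albicans, and 2.34 and 2.49 CPM with C. tropicalis. Ltb, the membrane-bound lymphotoxin chain that drives follicle formation, measured 5.43, 50.8 and 42.0 CPM in the controls, 13.3, 4.83 and 11.6 CPM with C. albicans, and 12.2 and 16.7 CPM with C. tropicalis. In both genes controls 2 and 3 lay above every colonized library and control 1 lay at the level of C. albicans 2. Madcam1, the addressin that lets lymphocytes enter from the blood, measured 2.57, 8.76 and 11.6 CPM in the controls, 4.61, 2.47 and 4.45 CPM with C. albicans, and 5.94 and 5.61 CPM with C. tropicalis. Lta, the soluble lymphotoxin chain encoded beside Ltb on chromosome 17, averaged 1.94 ± 1.79, 0.822 ± 0.401 and 1.22 ± 0.127 CPM in the 3 groups. Ccr6, a receptor of B cells and inducer cells for CCL20, averaged 1.20 ± 0.887, 0.627 ± 0.530 and 0.853 ± 0.0757 CPM, with 1 count in its lowest library.

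For colonization by C. albicans, 28 of the 29 members had a log2 fold change below 0 against the controls (51.8% of all tested genes did), and 22 lay at -1 or lower (3.04%). Most members rose and fell together over the libraries, so counts of members, here and in the comparisons below, are not those of independent genes. None of the 29 passed edgeR's quasi-likelihood test at an adjusted p under 0.05, a threshold passed by 0.0435% of tested genes. At an unadjusted p under 0.05, 11 members lay lower (Pax5, Cd79a, Cd79b, Fcer2a, Ccr7, Ltb, Blk, Bank1, Vpreb3, Ikzf3 and Btla; 6.31% of tested genes) and Blnk lay higher (9.13%). In limma-voom 0 members passed (0.0435% of tested genes), and in DESeq2 1 of the 27 members with an adjusted p did, Blnk, a share near that of all genes (3.39%). Pax5 had the lowest estimate, -2.63 ± 0.91 (SE, adjusted p = 0.263), followed by Fcer2a at -2.51 ± 1.0 (adjusted p = 0.292), Vpreb3 at -2.50 ± 0.85 (adjusted p = 0.259) and Ccr7 at -2.40 ± 0.91 (adjusted p = 0.282). For no member did all C. albicans libraries lie below all controls (9.57% of tested genes do). Control 1 alone overlapped the C. albicans libraries for 25 members, and for Cxcl13, Ccr6 and Ciita control 2 overlapped them too. For the same 25, controls 2 and 3 lay above every colonized library of both species, as they did for 8.25% of all tested genes. By role, the median log2 fold change was -2.02 for the receptor complex, -1.71 for the surface group, -1.24 for the follicle genes and -0.96 for the transcription regulators. The median over all 29 was -1.60 and that over all tested genes -0.016. It ran from -2.13 without control 1 to -0.75 without control 3, and it was -1.06 without C. albicans 2 (leaving out 1 library at a time). It was -0.35 when a score of smooth muscle genes was added to the fit. All 10 smooth muscle genes lay above 0 in this comparison (median 0.78), as did all 10 genes of enteric neurons and glia (median 0.68), and none passed the test.

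For C. tropicalis, 27 members lay below the controls (52.1% of tested genes) and 11 at -1 or lower (6.8%), again with none past the adjusted threshold (0.031%). Ebf1 lay lower at an unadjusted p under 0.05 (8.05%) and Blnk higher (7.33%), and these were also the 2 members whose groups did not overlap (16.5% of tested genes lower, 16% higher). In limma-voom 0 members passed (0.0248% of tested genes), and in DESeq2 1 of 29, Blnk, a share near that of all genes (2.57%). The lowest estimate was that of Ccr7, -1.97 ± 1.03 (edgeR, adjusted p = 0.386), and the median over the members was -0.83 against -0.019 over all genes. The median ran from -1.29 without control 1 to -0.17 without control 3, and it was -0.34 in limma-voom and -2.45 with the muscle score as a covariate. All 10 smooth muscle genes lay below 0 (median -1.05, 7 at an unadjusted p under 0.05), as did all 10 neuron and glia genes (median -0.87), and none passed the test. The muscle score did not overlap between the controls (-0.55 to 0.48) and C. tropicalis (-1.26 to -0.89), so muscle content and colonization cannot be told apart here. Both comparisons use the same 3 controls, so their estimates are not independent.

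Set directly against C. albicans, the C. tropicalis libraries gave a log2 fold change below 0 for 2 members, Spib at -0.032 ± 0.45 and Ebf1 at -0.39 ± 0.36 (46.3% of tested genes lay below 0), and above 0 for the other members. None passed edgeR's adjusted threshold, as for all tested genes (0%), or an unadjusted p under 0.05 (14.4% of tested genes lower, 8.83% higher), and 0 passed in limma-voom (0% of tested genes) or DESeq2 (10.5%). Both C. tropicalis libraries lay above all C. albicans libraries for 10 members (Pax5, Cr2, Fcer2a, Cxcr5, Lta, Blk, Bank1, Cd37, Vpreb3 and Madcam1; 23.4% of tested genes). Vpreb3 had the largest estimate, 1.76 ± 0.94 (adjusted p = 0.3), and the median over the members was 0.59 against 0.038. Smooth muscle differed between the same libraries, with 10 of 10 muscle genes lower in C. tropicalis at a median of -1.88. With the muscle score as a covariate the members' median became -1.95. The score did not overlap between these groups either (-0.03 to 1.44 with C. albicans), so the same limit applies.

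**Figure D3:**
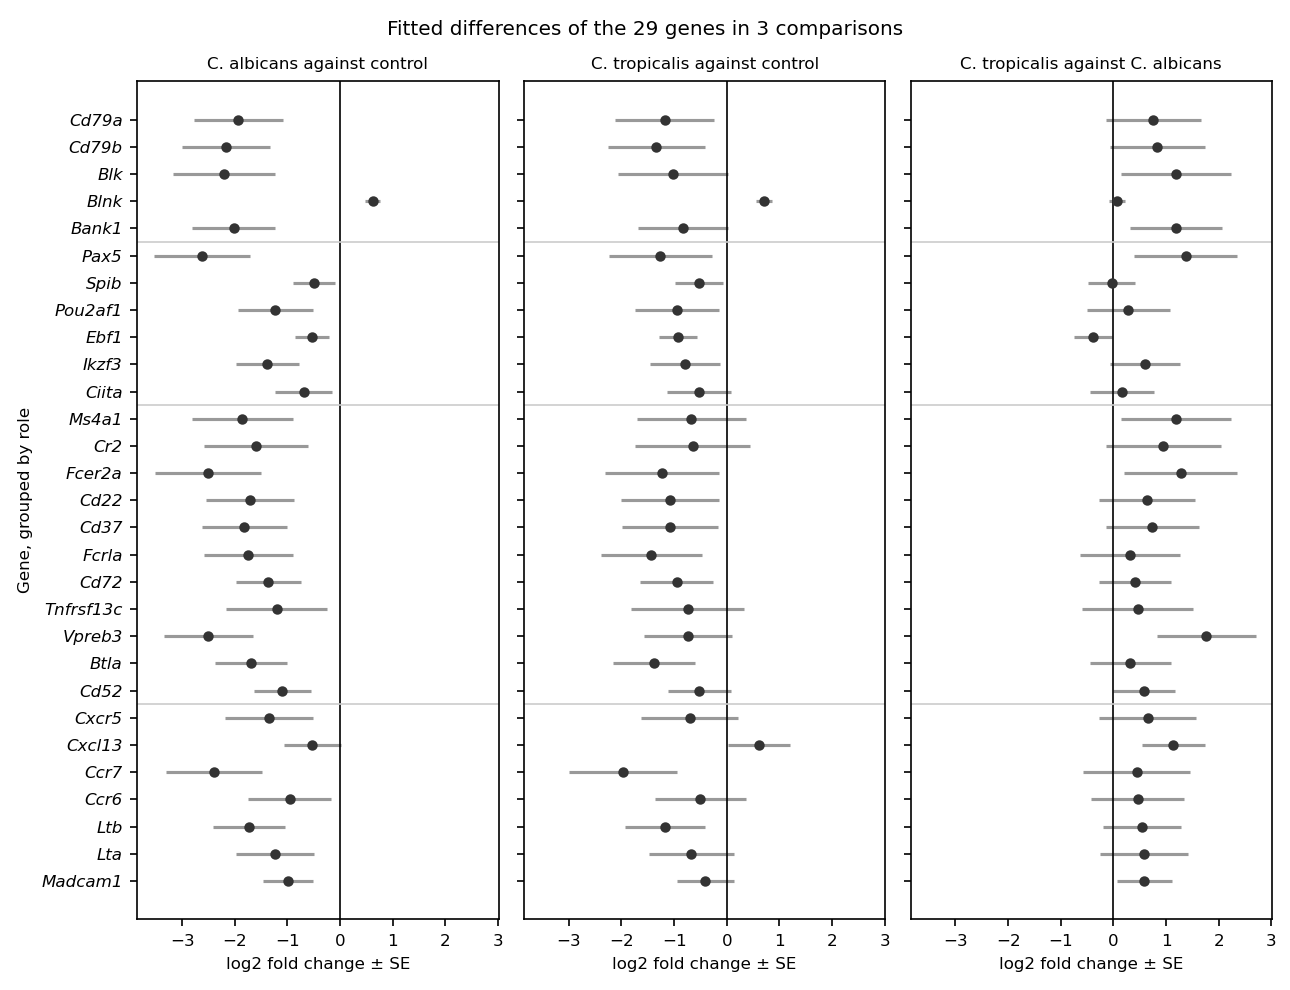
Log2 fold change with its standard error (edgeR) of the 29 members in the 3 comparisons. Most members lie left of 0 in both comparisons with the controls, with wide errors, and Blnk lies right of 0 with a narrow one.

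The spread between replicate libraries was wide. The standard deviation between replicate libraries, pooled over the groups on the log2 CPM scale, had a median of 1.28 over the members and of 0.25 over all tested genes. It exceeded the 95th percentile of all genes, 0.86, for 25 of the 29. The exceptions were Blnk (0.15), Ebf1 (0.39), Spib (0.67) and Madcam1 (0.78). Within the controls the highest library exceeded the lowest at least 5-fold for 21 members (4.77% of tested genes) and at least 10-fold for 15 (2.24%). The median ratio of the highest to the lowest library was 10.3 in the controls, 3.71 with C. albicans and 1.27 between the 2 C. tropicalis libraries. Without control 1 the median spread was 0.78.

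**Figure D4:**
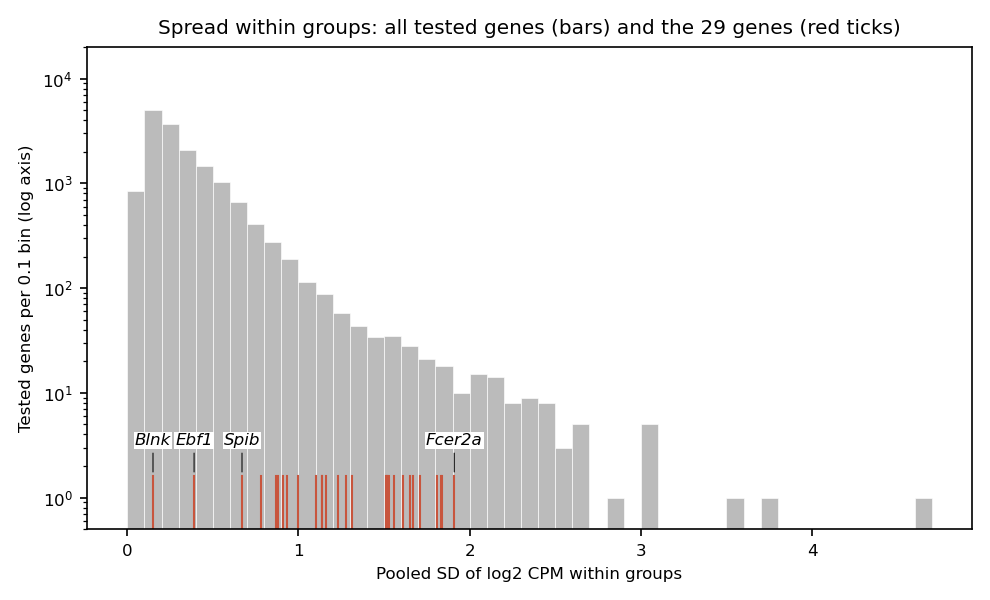
Distribution of the within-group standard deviation of log2 CPM over all 16107 tested genes (bars, log axis) with the 29 members as red ticks. The members' median of 1.28 lies beyond the 95th percentile of 0.86, and Blnk, at 0.15, lies in the body of the distribution.

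Other genes of the B cell pathway, a list of 35, gave no call in any comparison. Against the controls 33 of 35 lay below 0 with C. albicans (median -0.70, 10 at an unadjusted p under 0.05, against 6.31% of all tested genes) and 28 with C. tropicalis (median -0.63, 3 at that level, close to the 8.05% of all tested genes). Btk, the kinase downstream of the receptor, measured 1.26, 4.59 and 6.67 CPM in the controls and at most 1.63 CPM with C. albicans, a log2 fold change of -1.65 ± 0.54 (edgeR, adjusted p = 0.249). Bach2, a repressor that restrains plasma cell differentiation, was distinct: it lay at 3.08 to 6.02 CPM in the controls and at 2.94 to 4.88 CPM with C. albicans, but at 1.20 and 1.36 CPM with C. tropicalis. Its log2 fold change was -1.85 ± 0.39 (adjusted p = 0.158) against the controls and -1.69 ± 0.39 (adjusted p = 0.0669) against C. albicans. Ralgps2 and Cd55 were the closest to the threshold, both for C. tropicalis against C. albicans, at 0.66 ± 0.13 and 1.28 ± 0.25 (both adjusted p = 0.0646).

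Of 10 germinal centre genes, 7 passed the filter on low counts and 0 passed the test. The cytokine receptor gene Il21r measured 2.11, 9.89 and 14.8 CPM in the controls and 0.892 to 4.33 CPM with C. albicans (log2 fold change -1.79 ± 0.69, edgeR adjusted p = 0.284). Rgs13 had another order, with 3.14, 2.80 and 0.376 CPM in the controls and 2.36, 2.83 and 2.26 CPM with C. albicans. The list's summed level was 33.9, 45.0 and 50.1 CPM in the controls and 35.9, 42.6 and 33.7 CPM with C. albicans. Its median log2 fold change was -0.37 with C. albicans and -0.058 with C. tropicalis. Of 17 tested stromal and organizer genes 0 passed, with 10 below 0 with C. albicans (median -0.23) and 9 with C. tropicalis (median -0.081). Glycam1, a ligand carried by the venules through which lymphocytes enter, was near the floor of 3 counts: it measured 0, 0.834 and 1.88 CPM in the controls, 0.169, 0 and 0.183 CPM with C. albicans, and 0.228 and 0.623 CPM with C. tropicalis (adjusted p = 0.314 for C. albicans against control). Chst4, a sulfotransferase gene of the same list, did not share the order of Glycam1. It lay at 38.4 to 51.5 CPM in the controls, 51.9 to 65.7 CPM with C. albicans and 63.0 to 72.3 CPM with C. tropicalis. It did not pass the test (0.63 ± 0.17, adjusted p = 0.206, for C. tropicalis against control), and which cells its reads come from was not tested. Tnfsf13b, which encodes BAFF, lay at 5.48 to 6.67 CPM in the controls, 5.12 to 9.16 CPM with C. albicans and 9.35 to 10.2 CPM with C. tropicalis (0.64 ± 0.28, adjusted p = 0.317).

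Of 8 genes of M cells and the epithelium over follicles, 0 passed, and their summed level was 214 to 296 CPM in the controls, 211 to 241 CPM with C. albicans and 276 to 288 CPM with C. tropicalis. Ccl20, the ligand of Ccr6, had a log2 fold change of -1.57 ± 0.56 with C. albicans (edgeR, adjusted p = 0.266). Marcksl1 was highest with C. tropicalis (1.12 ± 0.29 against C. albicans, adjusted p = 0.0755), with control 1 and C. albicans 2 lowest (31.3 and 34.4 CPM). Sox8 was lowest with C. tropicalis (-1.27 ± 0.34 against C. albicans, adjusted p = 0.0789). It measured 1.66 to 2.04 CPM in the controls and 2.38 to 2.64 CPM with C. albicans. Ccl9 was highest in control 1, at 10.2 CPM. Gp2, an M cell receptor named after its values were seen, measured 0.685, 6.49 and 5.16 CPM in the controls, 3.49, 0.157 and 1.40 CPM with C. albicans, and 3.20 and 5.50 CPM with C. tropicalis, with control 1 and C. albicans 2 again the 2 lowest libraries.

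Plasma cell genes did not share the module's order. Their summed level (10 genes) was 1007, 2160.5 and 2339.7 CPM in the controls, 4480.2, 2629 and 1737 CPM with C. albicans, and 2718 and 1782 CPM with C. tropicalis, with C. albicans 1 highest. The sum includes Sdc1 (231 to 424 CPM over the 8 libraries) and Xbp1 (139.6 to 252 CPM). Which cells their reads come from was not tested. With C. albicans, 9 of 10 had a log2 fold change above 0 (7762 of 16107 tested genes did). Their median was 0.44, and none passed the test. Ighm was the exception, at 8.80, 117 and 121 CPM in the controls, 45.8, 11.8 and 26.2 CPM with C. albicans, and 32.1 and 39.1 CPM with C. tropicalis. Igha, the heavy chain of IgA, named after its values were seen, measured 378, 963 and 1089.7 CPM in the controls, 2659.6, 1314 and 736 CPM with C. albicans, and 1467 and 777 CPM with C. tropicalis. Control 1 was the lowest library for both heavy chains, while C. albicans 2 was low for Ighm and the third highest for Igha.

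Markers of other cells moved with the module in part. The summed level of 18 T cell genes was 21.8, 79.8 and 75.1 CPM in the controls, 42.9, 26.3 and 29.5 CPM with C. albicans, and 32.8 and 37.1 CPM with C. tropicalis, the same libraries high and low, and none of the 18 was at 0 in every library. The log2 fold change was below 0 for 17 of 18 T cell genes with C. albicans and for 18 of 18 with C. tropicalis, with none past the test. The summed level of 12 macrophage and dendritic cell genes was 172 to 405 CPM in the controls, 200.1 to 308 CPM with C. albicans and at least 263 CPM with C. tropicalis. Smooth muscle was highest, at 28472 CPM, in C. albicans 2, the poorest library for 22 members, and was 13323 CPM in control 1. The other libraries did not all follow this. C. albicans 3 held more smooth muscle, at 16013 CPM, than control 1 but also more of the members without Blnk (168 against 75.3 CPM). Smooth muscle was lowest with C. tropicalis, where those members summed to 189.7 and 246 CPM, below controls 2 and 3. Apart from the muscle covariate above, the part of these cells in the module's values was not tested.

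**Figure D5:**
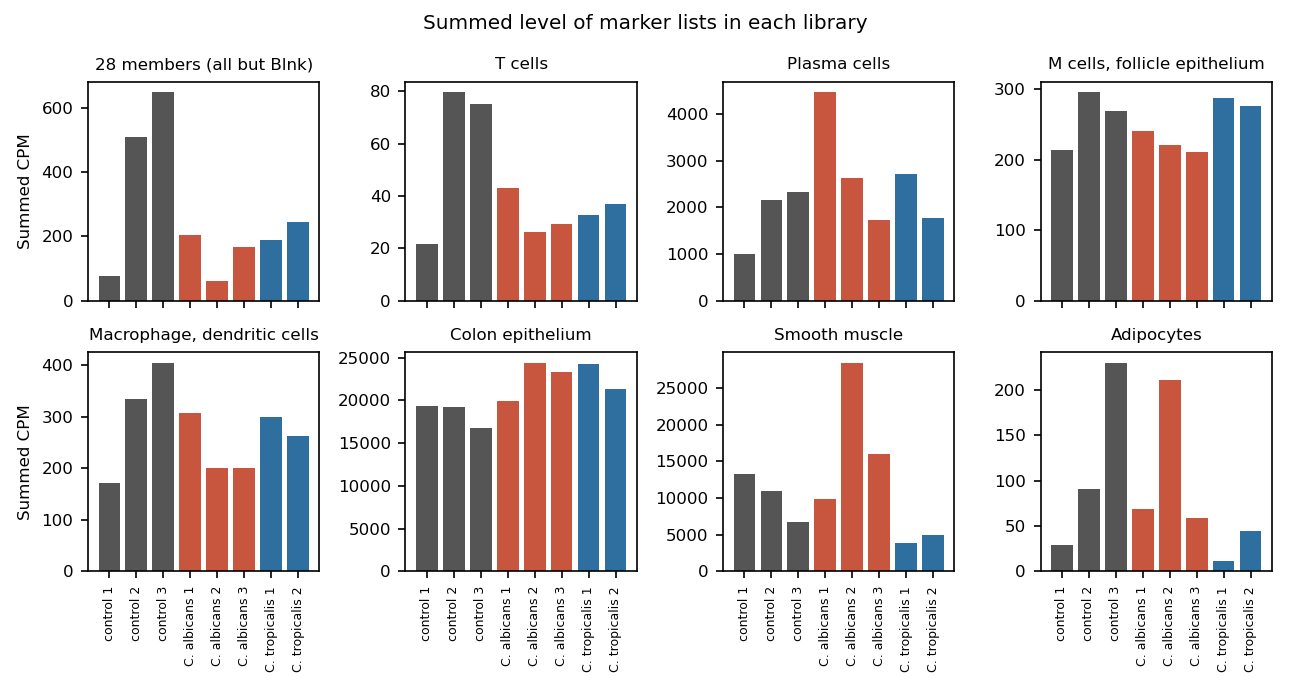
Summed CPM of marker lists in each library (bars from 0), one panel a list. The module without Blnk and the T cell genes are high in controls 2 and 3, plasma cell genes are highest in C. albicans 1, and smooth muscle genes are highest in C. albicans 2 and lowest with C. tropicalis.

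Some members share exons on the opposite strand with another gene, and the library kit does not keep strand. This holds for Cxcr5 with Bcl9l, Cd72 with Tesk1, Cd52 with Crybg2, Ciita with Dexi and Cd37 with Tead2. Pax5 and Cd22 also share exons with opposite-strand genes, but those partners held at most 1 count. For Cxcr5 the table held 715 counts over the 8 libraries and for Bcl9l 10565, so reads of the one could be counted for the other, and these 5 members are less certain than the rest.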

How the data were processed

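RNA from mouse colon was sequenced, and the authors deposited a table of raw counts per Ensembl gene for 8 libraries. TopHat2 2.0.12, HTSeq 6.1, DESeq 1.18.0 and the build mm10 are listed, per the submitters' processing notes, without their roles. Which annotation was counted, with which strand option and filter, is not given in the sources used here. Library columns were matched to samples by their labels.

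Symbols came from GENCODE M21, which held 52489 of the 52636 identifiers. The 147 without a match took 0.00317% of counts. Genes kept by filterByExpr on the 3 groups (16107) were fitted in edgeR 4.0.16 (R 4.3.3) with TMM factors and the quasi-likelihood test, all 8 libraries together, and p-values were adjusted over all tested genes by the Benjamini-Hochberg method at 0.05. The script was tested on simulated data. Alternatives used DESeq2 1.42.0, limma 3.58.1, other scalings, filters and covariates, and left out each library. RPKM divides CPM by the exon length. Log2 CPM used a prior count of 2. Figures were drawn with matplotlib 3.10.9.

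The members and lists were chosen with earlier results of these data known. CPM in every library is given for a fixed set of 14 members. For the other lists, up to 4 genes with the smallest p are named, besides genes said to be named after their values were seen. Where a listed gene had several rows (Ccl19, Ccl21a) the row with the most counts was used, and Fdcsp had no row. Replicate libraries differed by more than counting noise. Libraries with the same number showed no clear shared deviation and were not treated as pairs, though groups this small cannot settle pairing.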

Additional observations from a re-analysis of the deposited data

How the results depend on the processing

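No alternative tried brought a member other than Blnk past the threshold: members called stayed at 0 except in DESeq2, with 1 for C. albicans and 1 for C. tropicalis, both Blnk. Counts of genes over the whole table were unstable. For C. albicans against control, 7 genes were called, 471 by DESeq2, 119 with no filter, 11 with a smooth muscle score in the fit, 0 with the replicate number as a block, and 0 to 254 when 1 library was left out. For C. tropicalis against control, 5 were called, 383 by DESeq2, 71 with no filter, 0 with only the 2 groups compared, 0 with the muscle score, 0 with the replicate block, and 0 to 192 when 1 library was left out. For C. tropicalis against C. albicans, 0 were called by edgeR (2321 lower and 1423 higher at an unadjusted p under 0.05), 1738 by DESeq2, 1127 with no filter, 858 with only the 2 groups compared, and 0 to 1315 when 1 library was left out. The cause was not tested.

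The members' median log2 fold change kept its sign except for C. tropicalis against C. albicans with the muscle score (-1.95). With that score it was -0.35 for C. albicans and -2.45 for C. tropicalis against control, and with the replicate block it was -1.29, -0.36 and 0.89 in the 3 comparisons. Libraries of the same number correlated between -0.392 and 0.156 in their deviations from the group means. In groups of 2 or 3 libraries such deviations are tied to each other, so these values cannot settle whether the numbers pair the samples. Leaving out 1 library gave medians of -2.13 to -0.75, -1.29 to -0.17 and 0.23 to 0.95. The median spread between replicates ran from 0.78 (without control 1) to 1.43 when 1 library was left out and was 1.41 with a prior count of 0.5, alternatives chosen after seeing the data.

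With a smooth muscle term in the fit, the log2 fold change for C. albicans against control changed sign for Cr2 (0.15), Cxcr5 (0.035), Cxcl13 (0.28), Ccr6 (0.18), Lta (0.11), Spib (0.16), Tnfrsf13c (0.54) and Ciita (0.42). In limma-voom, the log2 fold change for C. tropicalis against control changed sign for Ms4a1 (0.039), Cr2 (0.049) and Tnfrsf13c (0.16). With the replicate block, the log2 fold change for C. tropicalis against control changed sign for Cr2 (0.038), Ccr6 (0.25) and Lta (0.025). With a smooth muscle term in the fit, the log2 fold change for C. tropicalis against control changed sign for Cxcl13 (-0.48). In limma-voom, the log2 fold change for C. tropicalis against C. albicans changed sign for Spib (0.064). With the replicate block, the log2 fold change for C. tropicalis against C. albicans changed sign for Spib (0.22). With a smooth muscle term in the fit, the log2 fold change for C. tropicalis against C. albicans changed sign for Pax5 (-1.26), Ms4a1 (-2.45), Cd79a (-1.78), Cd79b (-1.34), Cr2 (-3.09), Fcer2a (-2.33), Cxcr5 (-2.54), Cxcl13 (-0.77), Ccr7 (-1.95), Ccr6 (-2.24), Ltb (-1.32), Lta (-2.32), Blk (-2.28), Blnk (-0.0067), Cd22 (-2.41), Bank1 (-1.63), Pou2af1 (-2.10), Cd37 (-2.29), Fcrla (-2.29), Cd72 (-1.91), Tnfrsf13c (-3.31), Vpreb3 (-0.54), Ikzf3 (-1.75), Btla (-2.14), Cd52 (-0.99), Madcam1 (-1.10) and Ciita (-2.25). For C. albicans against control, leaving out 1 library (control 3) changed the sign for Ciita (range -1.07 to 0.15). For C. tropicalis against control, leaving out 1 library (control 3) changed the sign for Ms4a1 (range -1.20 to 0.12), Cr2 (range -1.17 to 0.38), Ccr6 (range -0.86 to 0.28), Lta (range -1.16 to 0.33), Tnfrsf13c (range -1.29 to 0.25), Madcam1 (range -0.82 to 0.03) and Ciita (range -0.91 to 0.31). For C. tropicalis against C. albicans, leaving out 1 library (C. albicans 1, C. albicans 2, C. albicans 3 or C. tropicalis 1) changed the sign for Spib (range -0.32 to 0.15), Ccr6 (range -0.10 to 1.11), Pou2af1 (range -0.049 to 0.95), Fcrla (range -0.11 to 0.84), Tnfrsf13c (range -0.055 to 0.95), Btla (range -0.084 to 0.75), Ciita (range -0.17 to 0.45) and Blnk (range -0.013 to 0.15). None of these values passed the test in either setting.

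Depth limits the faintest members: Cr2, Vpreb3 and Ccr6 had 2, 2 and 1 counts in C. albicans 2.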
